A study of Acyrthosiphon pisum with 15 samples.

Results

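The 150 gene models described here were read far more often in sexual females of the pea aphid, Acyrthosiphon pisum, than in any other adult form. They were chosen from 20657 gene models by their values. The lowest of the 3 sexual female libraries had to reach a normalised count of 100, and 8598 gene models did so. That lowest value was divided by the highest of the other 12 libraries plus 1, and the 150 with the largest ratio were taken. Sexual females against the other forms is therefore the contrast that chose the gene models, and it is described without a test. A normalised count is the number of reads after division by the library's size factor. It is not scaled for gene length, so levels of different gene models are counts of reads and not of molecules.

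RNA of whole bodies was sequenced from 5 adult morphs in each of 3 clones, F1, I18 and BK11, with 30 aphids per library and 15 libraries in all. Sexual females were 2 to 6 days old and lived at 15 °C under 13 h light and 11 h dark. Winged males and wingless males were 2 days old and had the same light and temperature. Winged and wingless asexual females, also 2 days old, lived at 18 °C under 16 h light and 8 h dark. Age range cannot be told apart from morph wherever sexual females stand beside another morph, nor light and temperature where asexual females do. Clones serve as the biological replicates in the labels. This gives n = 3 per morph, and every spread covers clone and preparation together. In whole bodies, fewer cells of a type and less RNA per cell cannot be told apart.

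Aphids alternate between reproductive modes. Through the long days asexual females bear live young, whose embryos develop inside the mother. Short days bring sexual females and males, and the mated sexual female lays eggs that pass the winter. Such an egg is supplied with yolk and wrapped in a shell, and glands of the reproductive tract add secretions as it is laid. None of the 150 identifiers could be paired with a name in the RefSeq gene table of assembly pea_aphid_22Mar2018_4r6ur_v2, in which 61 of all 20657 identifiers were found. No role is therefore given to any of them, marker genes of the reproductive tract could not be looked up, and neither the lists of genes by product name nor sequences are shown.

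Libraries held between 28721904 and 75066116 reads. Some libraries of other morphs held these transcripts above the level of their sister libraries. They were the I18 wingless male for most of the 150, and both BK11 males and the I18 winged asexual female most plainly for smaller sets described below. Across the 150 gene models the I18 wingless male stood at a median of 16.4% of the I18 sexual female, against 0.583% in the F1 and 1.65% in the BK11 wingless male, each relative to the sexual female of its own clone. Medians in winged males were 0.609% in F1, 0.910% in I18 and 1.96% in BK11. Both BK11 males thus had higher medians than the F1 males over the whole list. The I18 wingless male was the highest of the 12 libraries for 96 of the 150, and the BK11 winged male for 17. Limma calls and medians that rest on the I18 wingless male or the BK11 males are given with and without them. EdgeR and DESeq2 were run with these libraries only. What lies behind these values was not tested.

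**Figure D1:**
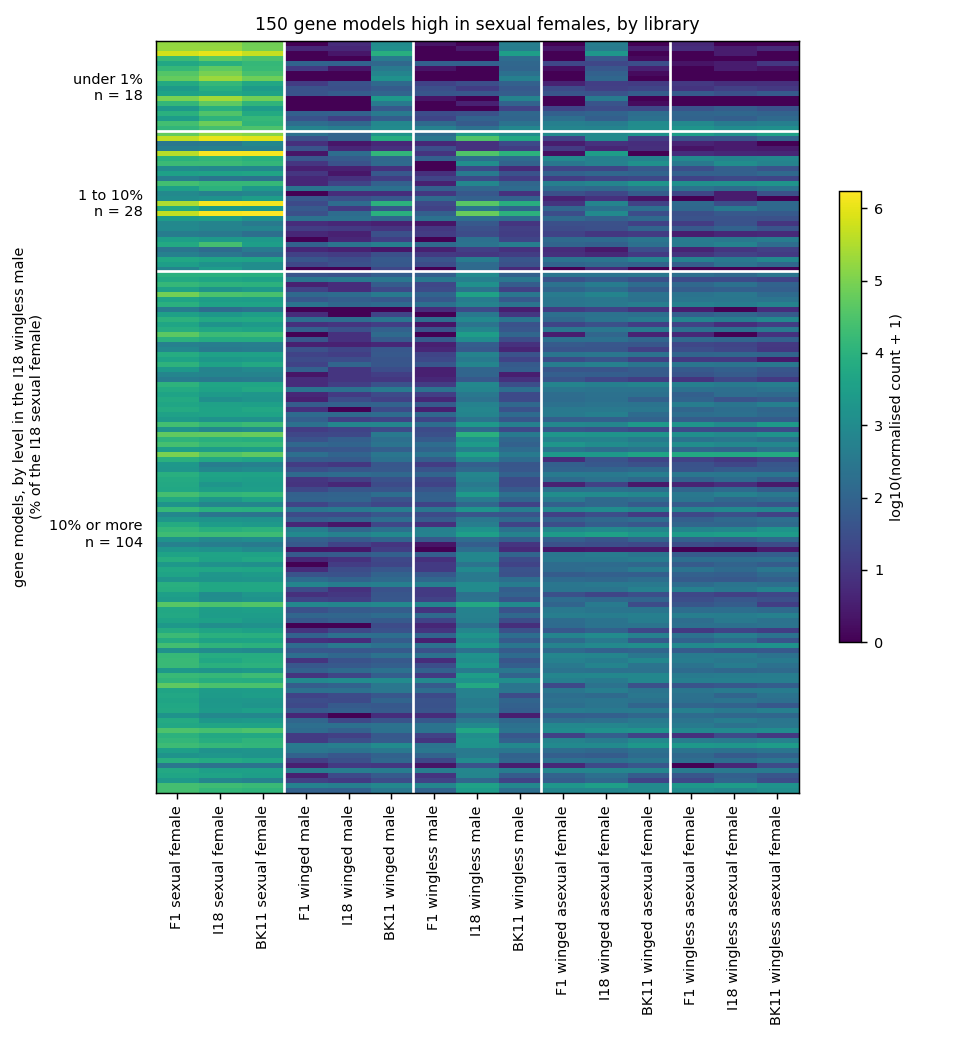
Normalised counts of the 150 gene models (rows) in the 15 libraries (columns) as log10(normalised count + 1), with rows grouped by the level in the I18 wingless male as a percentage of the I18 sexual female and sorted by the ratio of the rule within each group. The 3 sexual female columns are brightest throughout, and the I18 wingless male is the brightest of the remaining columns in the group of 104.

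In sexual females the 150 gene models took up a large share of all reads. They held 8.51% of the normalised counts in the F1, 18.5% in the I18 and 15.7% in the BK11 sexual female, against 0.0308% to 0.719% in the other 12 libraries. The upper end of that range was the I18 wingless male, and the next was the BK11 winged male with 0.194%. Most of the share came from 5 gene models, ACYPI49688-RA, ACYPI49694-RA, ACYPI49696-RA, ACYPI49687-RA and ACYPI088619-RA, which held 4.63% in the F1, 14.04% in the I18 and 12.7% in the BK11 sexual female. Beyond these the levels were spread widely. The mean over the sexual females ranged from 252 to 1229410 with a median of 4400, reached 10000 for 44 gene models and lay under 1000 for 18. Among the 100 gene models with the most reads, 13 were members in the F1, 13 in the I18 and 12 in the BK11 sexual female.

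The ratio of the rule had a median of 5.49 and a range of 4.53 to 76.7. It was 30 or more for 14 gene models, between 10 and 30 for 10 and under 10 for 126. The last members inside were ACYPI002847-RA with 4.55 and ACYPI28043-RA with 4.53, and the first outside were ACYPI47905-RA with 4.52 and ACYPI003318-RA with 4.51. For all 4 of these the highest library outside sexual females was the I18 wingless male. Most members were low rather than silent elsewhere, since 123 had at least 1 read in each of the 12 other libraries. Of the rest, 8 had no read in 6 or more of the 12.

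**Figure D2:**
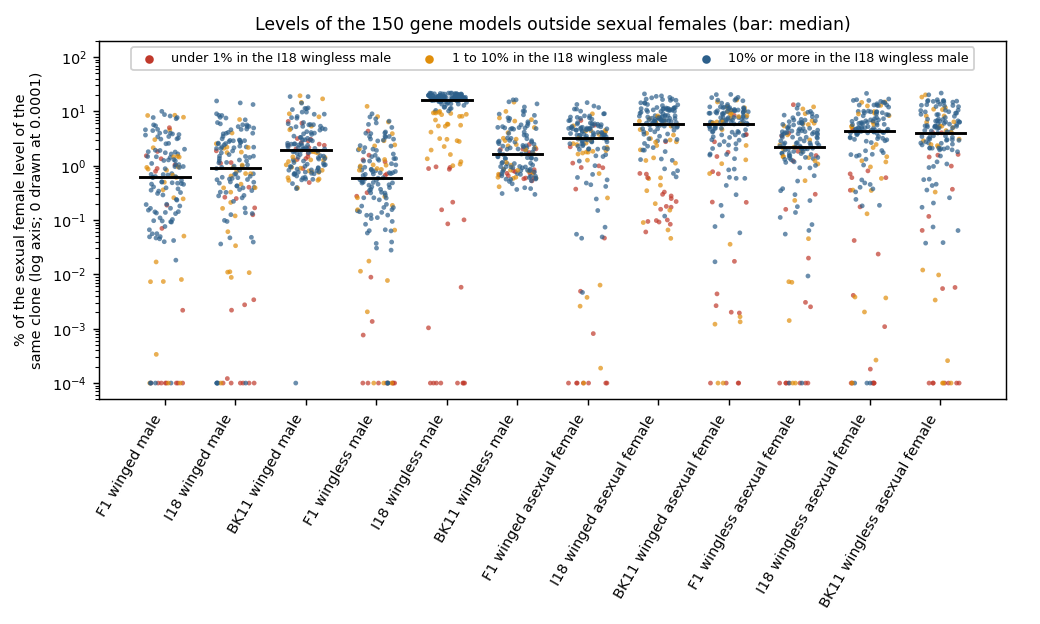
Level of each of the 150 gene models in the 12 libraries outside sexual females, as a percentage of the sexual female of the same clone (log axis, values of 0 drawn at 0.0001), with bars at the medians. The I18 wingless male holds a dense band with its median at 16.4%, while the medians of the other 11 libraries lie between 0.583% and 5.96%.

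The level in the I18 wingless male divided the members, as the plot of percentages by library shows. Relative to the I18 sexual female it was under 1% for 18 gene models, 1 to 10% for 28 and 10% or more for 104. These limits were set after the values were seen, the groups carry no test, and values ran up to the upper limit from both sides, with 9.9998% as the highest of the middle and 10.2% as the lowest of the upper group.

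The 18 gene models under 1% held the most exclusive ones, with a median ratio of 39.3. ACYPI29978-RA had the largest ratio and stood at 169726, 155724 and 78951 in the F1, I18 and BK11 sexual females. In winged males it was at 0, 5.32 and 1029, in wingless males at 1.30, 0 and 469.2, and in winged asexual females at 0, 432.9 and 0, in the same order of clones. In wingless asexual females it had 4 reads in F1 and 0 in I18 and BK11. Both BK11 males and the I18 winged asexual female were thus high among libraries that otherwise held a few reads. ACYPI21979-RA showed the same picture, with 175744, 181625 and 81911 in sexual females, against 1204 in the BK11 winged male, 432.2 in the BK11 wingless male, 398.7 in the I18 winged asexual female and at most 5.37 in the other 9 libraries. ACYPI21980-RA, with 14596, 48206 and 15616 in sexual females, was likewise highest elsewhere in BK11 males, at 337.0 in winged and 105.2 in wingless ones, followed by 48.4 in the I18 winged asexual female.

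ACYPI088619-RA was the most read of these 18. It reached 675603 in the F1, 1099310 in the I18 and 478822 in the BK11 sexual female. All 4 other F1 libraries had 0 reads of it. With the 3 reads that a count of 0 allows per library, its level in the F1 sexual female was at least 173537-fold higher. It stood at 7999 in the BK11 winged male, 3134 in the BK11 wingless male and 1897 in the I18 winged asexual female, with at most 1.98 elsewhere. ACYPI21982-RA, at 16840, 50210 and 27881 in sexual females, also had 0 reads in the other F1 libraries and was at least 4326-fold higher in the F1 sexual female. Bounds of 14773-fold for ACYPI073612-RA, 9502-fold for ACYPI005623-RA and 3468-fold for ACYPI068436-RA were obtained in the same way, all 3 without a read in the other F1 libraries.

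In these 5 and in ACYPI21967-RA, with 1 read, each of the 4 other F1 libraries had at most 3 reads. The 6 show the levels in the libraries that stood apart. The BK11 winged male held 1.35% to 3.07% of their BK11 sexual female level and the BK11 wingless male 0.576% to 0.809%. The I18 winged asexual female held 0.0604% to 0.173% of the I18 sexual female level, whereas the I18 wingless male held at most 0.00580%. A level under 1% in the I18 wingless male is what defines the group of 18. Among all 150, 8 members had at most 3 reads in each of the 4 other F1 libraries. Those outside the group of 18 were ACYPI001343-RA and ACYPI008668-RA. They held 1.40% and 1.81% in the BK11 winged male, but 11.98% and 5.34% in the I18 wingless male. The ratio of the BK11 winged to the BK11 wingless male ranged from 2.35 to 3.97 among the 6.

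ACYPI002670-RA belonged to the 18 and had another pattern outside sexual females than the gene models named so far. It stood at 5388, 8386 and 13931 in the F1, I18 and BK11 sexual females. Values were 98.7, 93.1 and 123.7 in winged males and 84.4, 80.2 and 117.9 in wingless males. They were 20.025, 20.9 and 29.9 in winged and 1.07, 1.98 and 8.99 in wingless asexual females. Here all 6 males were even and lay above all 6 asexual females, and the wingless asexual females lay below the winged ones.

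The 28 gene models at 1 to 10% in the I18 wingless male included the 4 most read members of all. ACYPI49688-RA stood at 450571 in the F1, 1506090 in the I18 and 1731570 in the BK11 sexual female. It was at 33.3, 162.3 and 9351 in winged males, 79.2, 62649 and 10135 in wingless males, 28.6, 990.9 and 28.8 in winged and 32.2, 55.6 and 58.4 in wingless asexual females. The highest libraries outside sexual females were the I18 wingless male and both BK11 males, and the F1 sexual female was the lowest of its morph. The same held for the other 3.

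ACYPI49694-RA reached 380007, 1498680 and 1391390 in the F1, I18 and BK11 sexual females. It stood at 33845 in the I18 wingless male and at 13050 and 10180 in the BK11 winged and wingless males. In the 4 other F1 libraries it was at most 7.79. The I18 winged asexual female held 3006, against 0.715 in the F1 and 0 in the BK11 winged asexual female. ACYPI49696-RA reached 302509, 1462570 and 1343580 in sexual females, and ACYPI49687-RA 454148, 1086660 and 933247. Their I18 wingless male values were 40893 and 33351. In the I18 winged asexual female they were at 673.9 and 979.2, against 7.87 and 17.2 in the F1 and 16.3 and 12.5 in the BK11 one. In the F1 libraries outside sexual females they stayed at or below 137.6 and 297.2.

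The group of 104 was the bulk of the list, with means over the sexual females from 252 to 60673. Its median was 5916 in the F1, 3618 in the I18 and 3455 in the BK11 sexual female. In the I18 wingless male it was 588.6, against 37.0 in the F1 and 71.7 in the BK11 wingless male. The median was 40.4, 36.6 and 63.9 in the F1, I18 and BK11 winged males, 193.1, 229.8 and 215.8 in winged and 156.4, 147.8 and 143.8 in wingless asexual females. The medians of asexual females thus stood above those of the males other than the I18 wingless male. In that library the 104 ranged from 10.2% to 21.7% of the I18 sexual female, with a median of 17.4%. The lower end is the limit of the group, and the upper end is bounded by the rule, which keeps every other library well under the lowest sexual female.

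Gene models that the rule left out were also high in the I18 wingless male. Of the other gene models with at least 100 in every sexual female library, 71 had all 5 other male libraries under 2% of the lowest sexual female. In the I18 wingless male those 71 stood at a median of 22.1% of the I18 sexual female, and 98.6% of them at 10% or more. Being left out by the rule favours a high value in that library, so the 71 are a description. The I18 wingless male thus bore on which gene models were taken. Without it, the rule kept 86 of the 150, among them 17 of the 18, 15 of the 28 and 54 of the 104, and the list ended at a ratio of 8.20.

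Within a clone the distance between the sexual female and its sisters varied. In F1 the sexual female was a median of 24.5-fold above the highest of the 4 other F1 libraries, counted over members with reads there, against 6.06-fold in I18 and 15.1-fold in BK11. In F1 25 members were at least 100-fold higher than in the highest other library, in I18 15 and in BK11 8. None of the 150 was under 5-fold in F1, whereas 18 were in I18 and 5 in BK11. Much of this rested on the libraries that stood apart. Without the I18 wingless male the I18 median was 14.3-fold, with 26 members at least 100-fold higher and 2 under 5-fold. Without the BK11 males the BK11 median was 15.6-fold over the 145 members with reads, with 31 at least 100-fold higher and 5 under 5-fold. The F1 median was the highest of the 3 in both settings. The counts of members at least 100-fold higher were then in another order, BK11 having the most and F1 the fewest.

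The clones themselves were not alike within sexual females, where each has 1 library and no replicate. The highest of the 3 was the F1 library for 112 members, the I18 library for 27 and the BK11 library for 11. Among the other 8448 gene models with at least 100 in every sexual female library, F1 was highest for 5106. The groups set by the I18 wingless male went apart here. F1 was highest for 98 of the 104 and for 1 of the 18, while I18 was highest for 14 of the 18. Both measures use the I18 sexual female value. The ratio of F1 to BK11, which does not, had a median of 1.65 in the 104 and 1.03 in the 18. Among the other 8448 this median was 1.22. The ratio of I18 to BK11, which uses the I18 value again, had a median of 0.979 in the 104 and 2.69 in the 18. Its median among the other 8448 was 0.965.

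**Figure D3:**
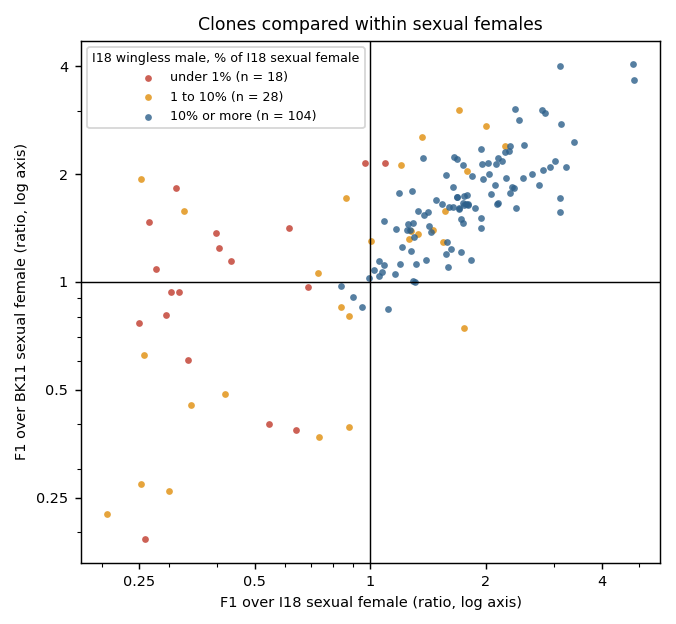
Ratio of the F1 to the I18 sexual female (x axis) and of the F1 to the BK11 sexual female (y axis) for the 150 gene models, both on log axes, with colours for the 3 groups by level in the I18 wingless male. The 104 lie mostly in the upper right, where F1 is highest, and 17 of the 18 do not.

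The highest of the 3 sexual female libraries exceeded the lowest by a median of 2.03-fold, against 1.64-fold among the other 8448. The most even member was ACYPI009646-RA, with 4063, 4084 and 3967 in the F1, I18 and BK11 sexual females. ACYPI21046-RA, with 1823, 1734 and 1750, and ACYPI005449-RA, with 20201, 18867 and 18998, followed. These 3 differed by at most 1.07-fold over clones.

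The widest differences were 7.66-fold for ACYPI37292-RA, 5.87-fold for ACYPI50300-RA and 5.54-fold for ACYPI48621-RA. ACYPI37292-RA stood at 6013 in the F1, 23769 in the I18 and 3105 in the BK11 sexual female. ACYPI50300-RA stood at 21778, 69763 and 11875, and ACYPI48621-RA at 8933, 33626 and 6068, in the same order. In all 3 the I18 library was highest and the BK11 library lowest.

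Differences among clones over all morphs were tested across all gene models with limma, in a fit with morph and clone. It called 7.05% of the 20301 gene models tested and 0 of the 150 members, with 8 at an unadjusted p under 0.05. The count of members was also 0 with edgeR, with DESeq2 and in the 12 libraries without sexual females, where 14 had an unadjusted p under 0.05. The share of all gene models at an unadjusted p under 0.05 was not counted, so the 8 and the 14 have no background. The smallest limma adjusted p was 0.161, for ACYPI001845-RA. A p above the threshold does not show that the clones were equal, since each clone has 1 library per morph.

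Which other morph came next differed from member to member. By mean level it was wingless males for 52, winged asexual females for 47, wingless asexual females for 32 and winged males for 19. Of the 52, 43 were in the group of 104. Without the I18 wingless male, wingless males came next for 15, 8 of them in the 104, winged asexual females for 74, wingless asexual females for 35 and winged males for 26. Without the BK11 males as well, the counts were 7 for wingless males, 96 for winged asexual females, 35 for wingless asexual females and 12 for winged males. Winged males came next for 14 of the 18, and the BK11 winged male was the highest of the 12 libraries in all 14. Without those 3 libraries winged males came next for 4 of the 18 and winged asexual females for 12.

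Males were compared with asexual females to ask where the low levels outside sexual females lay, a contrast the rule did not use. In the limma fit over all 15 libraries, 61 members were lower in males and 17 higher at an adjusted p under 0.05, which is 40.7% and 11.3% of the 150. Over all gene models tested the shares were 25.3% lower and 32.5% higher, 57.8% in all. Median log2 fold changes were −0.93 over the members and 0.27 over all gene models tested. With the other tools the share of lower members was not above that of all gene models. EdgeR called 35 lower and 22 higher, or 23.3% and 14.7% of the members, against 26.6% and 29.9% of all gene models. DESeq2 called 35 lower and 26 higher, or 23.3% and 17.3%, against 26.3% and 34.4%, where any gene model without an adjusted p counts as not called. In limma, without the I18 wingless male, 87 members were lower and 12 higher, against 26.1% lower and 32.4% higher of all gene models, and the median over the members was −1.39. Without it and both BK11 males, a choice made after seeing the data, 90 were lower and 9 higher, against 22.7% and 27% of all gene models. The median over the members was then −1.67. All 150 passed the filter on low values through the sexual females, and 147 would also pass it in the other 12 libraries alone.

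For males below asexual females, overlap between the groups turned on 1 library. All 6 males lay below all 6 asexual females for 1 member, against 13.5% of all gene models tested. With the I18 wingless male set aside, the other 5 males lay below all 6 asexual females for 64 members, against 19.4% of all gene models. Males lay above for 7 members with all 6 libraries and for 8 without the I18 wingless male, where 17.7% and 21.4% of all gene models did.

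**Figure D4:**
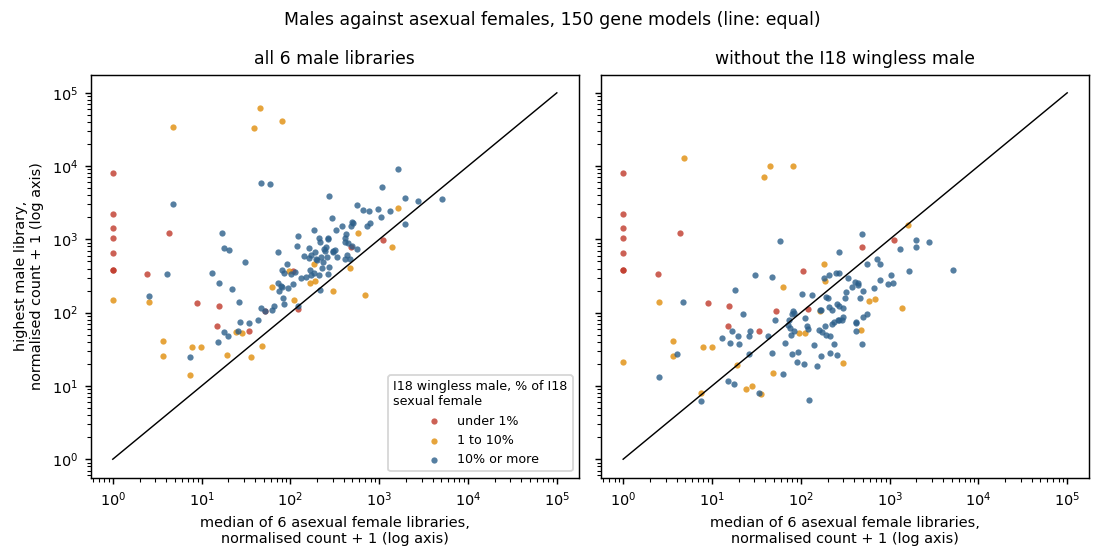
Highest male library (y axis) against the median of the 6 asexual female libraries (x axis) for the 150 gene models, as normalised count + 1 on log axes, with all 6 male libraries on the left and without the I18 wingless male on the right. Most of the 104 lie above the line of equality on the left and below it on the right.

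Among members higher in males, ACYPI006336-RA had the smallest p. It was at 262.8, 329.8 and 296.2 in F1, I18 and BK11 winged males and 316.6, 490.5 and 292.4 in wingless males. In asexual females it was at 34.3, 59.2 and 33.2 in winged and 23.7, 25.8 and 17.1 in wingless ones. The groups did not overlap, with a log2 fold change of 3.40 ± 0.25 (SE, limma adjusted p = 8.2e-08), and sexual females stood at 6247, 4706 and 3951. This gene model was therefore graded, with sexual females above males and males above asexual females.

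ACYPI28105-RA was graded in the same way. It was at 51.3, 31.9 and 51.6 in winged and 138.9, 87.7 and 87.8 in wingless males, against 2.86, 6.67 and 1.09 in winged and 0, 1.98 and 0 in wingless asexual females. The log2 fold change was 4.84 ± 0.44 (limma adjusted p = 7.7e-07), on a scale of log2(value + 1) that understates changes near 0. ACYPI002670-RA, whose values are given above, followed with 3.34 ± 0.39 (limma adjusted p = 6.8e-06).

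On the other side stood ACYPI21890-RA, at 47.4, 59.8 and 127.7 in F1, I18 and BK11 winged males and 81.8, 175.5 and 151.4 in wingless males. In asexual females it was at 862.5, 516.3 and 575.6 in winged and 865.4, 637.0 and 742.4 in wingless ones. All males lay below all asexual females, and it was the member for which this held with all 6 males (log2 fold change −2.82 ± 0.28, limma adjusted p = 1.4e-06).

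ACYPI002182-RA stood at 191.0, 99.7 and 286.7 in winged males and 254.4, 3574 and 376.7 in wingless males. It was at 2264, 2425 and 4359 in winged and 6092, 5939 and 6399 in wingless asexual females. The I18 wingless male lay within the range of the asexual females and the other 5 males far below it (−3.58 ± 0.54, limma adjusted p = 7.0e-05, and 2.7e-07 without that library). ACYPI010013-RA fell as well, by 2.75 ± 0.50 on the log2 scale (limma adjusted p = 0.00033), with 409.4 in the I18 wingless male, 29.3 to 57.1 in the other 5 males and 231.0 to 790.9 in asexual females. The calls of these 6 members held in all 26 alternatives tried.

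**Figure D5:**
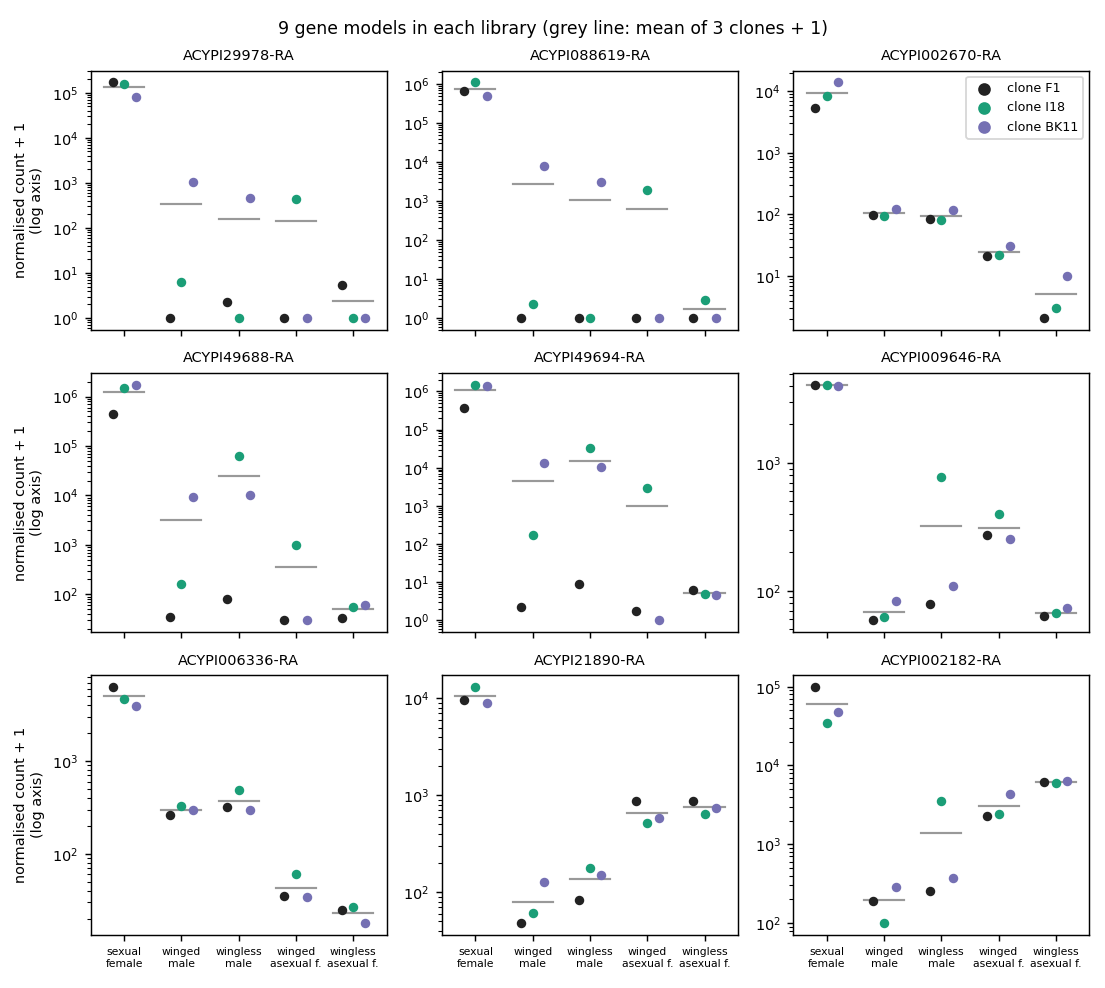
Normalised count + 1 (log axis) of 9 gene models in each library, by morph, with 1 point per clone and grey lines at the mean of the 3 clones. The I18 wingless male stands above the other wingless males in ACYPI49688-RA, ACYPI49694-RA, ACYPI009646-RA and ACYPI002182-RA, and the BK11 males stand above the other males in ACYPI29978-RA and ACYPI088619-RA.

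Few members passed the adjusted threshold between winged and wingless asexual females. Limma called 4 as higher and 0 as lower in winged females, that is 2.67% of the 150 higher, against 4.54% higher and 6.82% lower over all gene models tested. With TMM scaling the shares over all gene models were 6.06% higher and 5.63% lower, and 5 members were higher. With values as deposited, 11 members had an unadjusted limma p under 0.05 in either direction. That count was 22 without the I18 wingless male and 30 without it and both BK11 males. In a fit of the asexual female libraries alone it was 32. The share of all gene models at that cut was not counted. EdgeR called 6 members, or 4%, all higher, against 5.83% higher and 4.89% lower over all gene models. DESeq2 called 10, or 6.67%, all higher, against 8.1% higher and 9.61% lower. The median log2 fold change was 0.52 over the members and 0 over all gene models tested. Without the I18 winged asexual female it was 0.31 over the members. By group it was 1.78 in the 18, −0.12 in the 28 and 0.53 in the 104, with all libraries.

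In all 4 called the winged and wingless females did not overlap. ACYPI008027-RA was at 143.0, 84.2 and 135.3 in F1, I18 and BK11 winged females, against 38.7, 37.7 and 34.2 in wingless ones (log2 fold change 1.65 ± 0.37, limma adjusted p = 0.012). ACYPI002670-RA, with the values given above, had 2.61 ± 0.55 (limma adjusted p = 0.0089).

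ACYPI009646-RA, the member most even over clones in sexual females, was at 274.6, 395.3 and 253.3 in winged females, against 62.3, 65.5 and 71.9 in wingless ones (2.17 ± 0.62, limma adjusted p = 0.040). In the I18 wingless male it was at 772.5, against 57.7 to 108.6 in the other males. Without that library, whose value enters the shared estimate of spread, the limma adjusted p was 0.00084. ACYPI001348-RA was at 740.2, 711.5 and 720.7 in winged and 397.7, 333.4 and 371.2 in wingless females (0.98 ± 0.27, limma adjusted p = 0.032). The call was lost in 1 of 26 alternatives for ACYPI002670-RA, 2 of 26 for ACYPI008027-RA, 6 of 26 for ACYPI001348-RA and 12 of 25 for ACYPI009646-RA. The count of members fell to 1, or 0.667%, without the F1 winged asexual female. Of all gene models 1.58% were then higher and 3.62% lower. It was 2, or 1.33%, without the I18 winged or any 1 of the wingless asexual females. In those settings 1.96% to 3.49% of all gene models were higher and 3.29% to 6.5% lower. The count rose to 9 without the I18 wingless male, 1 of them lower. The higher ones were 5.33% of the members, against 5.53% higher and 7.81% lower over all gene models.

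The comparison of winged with wingless males depended on the tool. Limma called 0 of 150, against 0.172% higher and 0.177% lower, or 0.35% in either direction, over all gene models tested. At an unadjusted limma p under 0.05 there were 16 members, and 7 without the I18 wingless male. The share of all gene models at that cut was not counted. EdgeR called 0, against 0.0296% higher and 0.00493% lower. DESeq2 called 20 as lower in winged males, or 13.3% of the members, against 2.46% lower and 0.606% higher over all gene models. It was not run without the I18 wingless male, so how far these 20 calls rest on that library was not tested. The median log2 fold change over the members was −1.08 with all libraries, −0.10 without the I18 wingless male and 0.01 without it and both BK11 males. The lower median in winged males was thus nearly absent once the I18 wingless male was left out.

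The wing effect in males minus that in asexual females was tested directly, since a call in 1 sex alone shows no difference. The median over the members was −1.58, with a negative sign for 131 of 150, against −0.07 over all gene models. Without the I18 wingless male the median over the members was −0.61. The share of members with a positive sign was then 30.7%, against 12.7% with that library. Without it and both BK11 males the median over the members was −0.36, with a positive sign for 38.7%. The median over all gene models was −0.04 in both settings. Signs over all gene models were not counted. Limma called 1 member, ACYPI001608-RA, as negative, against 0.591% negative and 1.28% positive, or 1.87% in either direction, over all gene models tested. With TMM scaling these were 0.847% negative and 1.03% positive. ACYPI001608-RA had 0 reads in all 3 winged males, against 5.19, 23.6 and 2.31 in F1, I18 and BK11 wingless males, and stood at 11.4, 16.7 and 7.61 in winged, against 2.15, 0 and 5.39 in wingless asexual females. All these values rest on few reads. Neither sex alone passed the threshold (limma adjusted p = 0.20 in males and 0.10 in asexual females). With clone as a block, limma called 2 members as negative, against 0.867% negative and 1.69% positive over all gene models. EdgeR called 1, or 0.667%, against 0.438% negative and 0.453% positive over all gene models. DESeq2 called 31, or 20.7%, against 3.96% negative and 3.77% positive, and was not run without the I18 wingless male. In limma the count of members was 3 without the F1 sexual female, against 1.19% negative and 2.45% positive over all gene models. It was 2 without the BK11 wingless male, against 1.14% negative and 1.05% positive. It was 0 without the I18 or BK11 sexual female, any 1 winged male, the F1 or I18 winged asexual female or any 1 wingless asexual female. In those settings 0.0591% to 0.36% of all gene models were negative and 0.128% to 1.18% positive.

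Some members had neighbouring identifier numbers. With a gap of at most 20 between consecutive numbers, 19 such runs were found, of which 17 were pairs. Runs among all gene models were not counted, so the 19 cannot be called particular to the members. The longest had 5 members, ACYPI21967-RA, ACYPI21968-RA, ACYPI21979-RA, ACYPI21980-RA and ACYPI21982-RA, all in the group of 18. The next had 4, ACYPI49687-RA, ACYPI49688-RA, ACYPI49694-RA and ACYPI49696-RA, all in the group of 28 and the 4 most read members. These runs were singled out after the values were seen. Whether such identifiers lie side by side in the genome, or share reads through similar sequence, was not tested, so the values of single members of a run are uncertain.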

How the data were processed

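RNA of whole adults was extracted with a phenol and chloroform method, per the labels. What the authors deposited is a signal, the reads of each gene model over the size factor of the library. The submitters' processing notes list DESeq2, with no version. The aligner, counter, strand setting and build were not given in the sources used here. Throughout the 15 libraries 100% of values were whole multiples of the smallest positive value within 0.001 of a read, so reads were recovered. Limma 3.58.1 in R 4.3.3 was fitted to log2(value + 1) with a trend in the prior variance, on all 15 libraries with 5 morph means, for 20301 gene models with at least 10 in at least 3 libraries. The Benjamini-Hochberg adjustment ran over all of them. EdgeR 4.0.16 on the recovered reads called 2175 gene models between winged and wingless asexual females, 7 between winged and wingless males, 181 for the difference of these effects, 11474 between males and asexual females and 1247 among clones. DESeq2 1.42.0 was also run. Any gene model to which it gave no adjusted p was counted as not called and stayed in the base of the shares. The fitting code was tested on simulated data. Leaving out libraries kept the gene models of the full set.

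Libraries of 1 clone are paired by genotype. Their deviations from morph means correlated across genes at 0.135 to 0.642 over 30 pairs. Floors of 3 reads cover counting error only.

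The members, comparisons, alternatives and the rule for named gene models were chosen with earlier results of these data known. Named were the 6 largest ratios, the 4 highest means in sexual females, 2 on each side of the end of the list, the 3 most and 3 least even over clones, and in each comparison 3 members per direction with the smallest p, or all where 5 or fewer passed. Lists by product name were left out for want of names.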

Additional observations from a re-analysis of the deposited data

Results flagged for a closer look

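The wing effect differed between the sexes for 1 of the 150 gene models. ACYPI001608-RA had a log2 difference, male minus asexual female wing effect, of −5.18 ± 1.14 (SE, limma adjusted p = 0.041), and over 26 alternatives the adjusted p ran from 0.0012 to 0.185. It was lower in winged than wingless males in 3 of 3 clones and higher in winged than wingless asexual females in 3 of 3. The call was lost in 17 of the 26. The highest wingless male value was that of the I18 library, which, left out, gave a limma adjusted p of 0.062. A fitted difference against libraries without a read depends on the pseudocount of 1. The part of the few reads in this difference was not tested.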

How the results depend on the processing

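The list of 150 kept 135 to 149 members under other added constants, minimum levels and TMM scaling, 150 without the BK11 males, 86 to 150 when 1 library was left out and 83 without the I18 wingless male and the BK11 males. The lowest of these single-library values came without the I18 wingless male.

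Members called between winged and wingless asexual females numbered 4, and 10 with DESeq2, 2 without the BK11 males, 9 without the I18 wingless male and the BK11 males, and 1 to 9 when 1 library was left out. The 2 were 1.33%, against 3.17% higher and 5.34% lower over all gene models. The 9 without the I18 wingless male and the BK11 males were 6%, against 3.83% higher and 5.98% lower. With 1 library left out, 1.58% to 6.1% of all gene models were higher and 3.29% to 8.86% lower. Between winged and wingless males they numbered 0, and 20 with DESeq2, with 0 to 0 over single libraries left out. The difference of the wing effects was called for 1, for 2 with clone as a block, a filter of 50 or TMM scaling, and for 31 with DESeq2. It was called for 0 with a pseudocount of 8, with the compared groups alone, without the BK11 males and without those and the I18 wingless male. With 1 library left out the count was 0 to 3. The 31, all negative, were 20.7% of the members, against 3.96% negative and 3.77% positive over all gene models. The 20 were 13.3%, all lower, against 2.46% lower and 0.606% higher. The 10 were 6.67%, all higher, against 8.1% higher and 9.61% lower. Males against asexual females kept 57 to 99 calls against 78, with 60 to 99 over single libraries left out. Clones kept 0 in every setting run. For DESeq2, the block and the scalings the cause was not tested. The block changed no other count of members by more than 1.5 times and none of the named calls. Between winged and wingless asexual females the median log2 fold change of all gene models was 0.13 with edgeR, 0.10 with TMM and 0 as deposited, and for the difference of the wing effects it was −0.30 with edgeR, −0.19 with TMM and −0.07 as deposited. Depth limits the low levels outside sexual females, where 1 read was worth 0.544 to 1.98 normalised counts.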
